A study of Mus musculus with 12 samples.

Results

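The 6 genes described here encode chains of receptors for interleukin-2 and the related cytokines that signal through the common gamma chain. They were chosen by symbol and are Il2ra, Il2rb, Il2rg, Il15ra, Il4ra and Il21r, out of 55536 annotated genes in the gene count table. Each was also found in the transcript counts, where they hold 35 of 141862 annotated transcripts, and in the FPKM values. RNA was sequenced from OT-I CD8+ T cells, mouse cells that all carry 1 transgenic T cell receptor specific for an ovalbumin peptide. The donor mice lacked Rag1 or Rag2, so the OT-I receptor is the only one these cells can make, and this holds for every group. For the Ag group (5 libraries), OT-I cells were transferred into C57BL/6J mice that received the antigen and control rat IgG. For the Ag+Costim group (5 libraries), the recipients received the antigen with agonist antibodies to CD134 (OX40) and CD137 (4-1BB), costimulatory receptors of the tumour necrosis factor receptor family. The labels place the harvest of both at day 4, and the study's methods put it slightly earlier. The Naive group (2 libraries) was OT-I CD8+ T cells that had not been transferred or stimulated. The donors were of either sex and varied in age, the cells were sorted for the OT-I receptor chains and a congenic marker, and the 3 groups were compared in pairs. Nothing in the labels says whether any library was pooled from several mice. The study's figures describe RNA-seq samples as individual biological replicates, and give pooling for mass spectrometry but not for the RNA. The spread between libraries may also include technical variation.

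Interleukin-2 binds a receptor of up to 3 chains. Il2ra encodes the alpha chain, CD25, which raises the affinity for interleukin-2 and does not itself signal. Il2rb encodes the beta chain, CD122, and Il2rg encodes the common gamma chain, CD132, and these 2 carry the signal to JAK1, JAK3 and STAT5. Il15ra encodes the chain that binds interleukin-15 and presents it to cells with the beta and gamma chains. Il4ra and Il21r encode the specific chains for interleukin-4 and interleukin-21, each of which pairs with the common gamma chain. In CD8+ T cells, CD25 is known as a marker of recent activation, and interleukin-15 acting through CD122 is known to support memory cells.

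The libraries held 23976932 (Ag 4) to 49258758 counts in annotated genes, and the other 11 held at least 39994606. Spearman correlations between libraries of a group were 0.966 to 0.984. CD8 T cell markers (9 genes) summed to 16744 and 17787 CPM (read counts scaled to a common library size) in Naive, 15642 to 20015 in Ag and 7070 to 9367 in Ag+Costim, so the defining markers were present in every library and lower after costimulation. Markers of CD4 and regulatory T cells, which can also express Il2ra, summed to 59.2 and 64.7, 162 to 203 and 42 to 76.3 CPM, and within that list Cd4 and Foxp3 were at most 2.39 and 0.786 CPM in any library, while Ctla4, which activated CD8+ T cells also express, was at 111 to 162 CPM in Ag. B cell markers summed to 1215 and 1223, 1525 to 2046 and 720 to 1357 CPM. Myeloid markers summed to 120 to 352 CPM and NK cell markers to 6.72 to 41.8 CPM over all libraries. Erythroid markers summed to 168 and 2312 CPM in Naive, 588 to 6720 in Ag and 14 to 210 in Ag+Costim. Of the marker genes, Pax5 was at 0 in both Naive libraries, and no other was at 0 in all libraries of a group. The part of these differences in the results below was not tested. In bulk RNA, fewer cells of a type and less RNA per cell cannot be told apart.

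Receptor chains were described first as TMM-scaled CPM, a measure that corrects for library size but not gene length. The members were chosen with results of these libraries known, so their levels and fold changes are descriptions without a test, and "called" marks only that edgeR's adjusted p in the fit over all genes was below 0.05.

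Il2ra was the chain that separated Ag+Costim most from the other groups. It lies on chromosome 2 (mm10, 11642807 to 11693193, plus strand, ENSMUSG00000026770.5). Il2ra was at 3.4 and 3.55 CPM in Naive. It was at 2.41, 1.52, 1.49, 5.42 and 1.03 CPM in Ag 1 to Ag 5. In Ag+Costim 1 to Ag+Costim 5 it was at 64.2, 122, 73.5, 29.3 and 60.5 CPM. Every Ag+Costim library was above every Ag and Naive library, while the Ag libraries lay on both sides of Naive. The fitted log2 fold change was 4.93 (SE 0.47) for Ag+Costim against Ag, 4.33 (SE 0.68) for Ag+Costim against Naive and -0.60 (SE 0.56) for Ag against Naive. The first 2 were called and the last was not. The relative spread was wide, with a coefficient of variation of 74.6% in Ag and 47.9% in Ag+Costim, and raw counts in Ag were 43 to 137. The highest Ag library was Ag 4, which had the fewest counts in total. The annotated locus Gm37881 overlaps Il2ra on the same strand. It held 5 to 8 counts in Naive, 0 to 3 in Ag and 23 to 56 in Ag+Costim, where Il2ra had at least 1260.

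Il2rb was higher in all Ag+Costim libraries as well, with a much tighter spread. It lies on chromosome 15 (78479256 to 78495271, minus strand, ENSMUSG00000068227.9). It was at 358 and 351 CPM in Naive and at 285, 373, 314, 263 and 455 CPM in Ag 1 to Ag 5. It was at 1172, 1430, 1340, 1353 and 1330 CPM in Ag+Costim 1 to Ag+Costim 5. The lowest Ag+Costim library was therefore above the highest of the other groups, and Ag and Naive overlapped. The log2 fold change was 1.97 (SE 0.14) against Ag and 1.90 (SE 0.19) against Naive, both called, and -0.07 (SE 0.17) for Ag against Naive, not called.

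Il2rg was the chain with the opposite pattern. It lies on the X chromosome (101264378 to 101268255, minus strand, ENSMUSG00000031304.18). It was at 1674 and 1681 CPM in Naive and at 1924, 1997, 2081, 1440 and 1964 CPM in Ag 1 to Ag 5. In Ag+Costim 1 to Ag+Costim 5 it was at 1071, 1093, 1279, 1378 and 1059 CPM. Ag+Costim lay below Ag and Naive in every library, although Ag 4 at 1440 CPM came close to the highest Ag+Costim library. The log2 fold change was -0.68 (SE 0.11) against Ag and -0.51 (SE 0.14) against Naive, both called. The second call was lost without either Naive library, at -0.52 in each case. Ag against Naive was 0.17 (SE 0.15), not called, and was -0.13 with an offset for transcript length. The CD8 T cell markers were lower in Ag+Costim as well, as given above. The annotated locus Gm20489 overlaps Il2rg on the same strand and held at most 44 counts in a library, against at least 36410 for Il2rg.

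Il15ra lies 12096 bases downstream of Il2ra with no annotated gene between them (chromosome 2, 11705290 to 11734317, plus strand, ENSMUSG00000023206.16). It was at 9.61 and 11.1 CPM in Naive and at 13.8, 13.8, 18.6, 11.3 and 17.2 CPM in Ag 1 to Ag 5. It was at 15.2, 16.8, 22.4, 26.5 and 18.5 CPM in Ag+Costim 1 to Ag+Costim 5. Both stimulated groups lay above Naive, and they overlapped each other, with only 2 of the 5 Ag+Costim libraries above all of Ag. The log2 fold change was 0.94 (SE 0.24) for Ag+Costim against Naive, which was called, and not without Naive 1 (0.84). It was 0.41 (SE 0.17) for Ag+Costim against Ag and 0.53 (SE 0.23) for Ag against Naive, neither called. The first of these was called without Ag 3 (0.50) or Ag+Costim 1 (0.49), and the second without Ag 4 or with an offset for transcript length (0.62 in each). Thus the neighbours Il2ra and Il15ra differed between Ag+Costim and Ag by 30.5-fold and 1.33-fold.

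Il4ra was highest in Naive cells. It lies on chromosome 7 (125552120 to 125579474, plus strand, ENSMUSG00000030748.9). It was at 166 and 183 CPM in Naive and at 31.6, 35.2, 51.8, 39.5 and 37.6 CPM in Ag 1 to Ag 5. In Ag+Costim 1 to Ag+Costim 5 it was at 53.9, 64.6, 60.9, 91.4 and 50.2 CPM. Naive lay above both stimulated groups, and 4 of 5 Ag+Costim libraries lay above every Ag library. The log2 fold change was -2.16 (SE 0.20) for Ag against Naive, -1.44 (SE 0.20) for Ag+Costim against Naive and 0.71 (SE 0.16) for Ag+Costim against Ag, all called. The last call was lost with an offset for transcript length, where the change was 0.41. Gm44876, antisense to Il4ra, had 0 counts in every library.

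Il21r, 23954 bases downstream of Il4ra with no annotated gene between, had the same order of Naive and Ag (chromosome 7, 125603429 to 125633570, plus strand, ENSMUSG00000030745.9). It was at 298 and 312 CPM in Naive, at 138, 148, 170, 152 and 177 CPM in Ag 1 to Ag 5 and at 161, 167, 178, 248 and 200 CPM in Ag+Costim 1 to Ag+Costim 5. Naive was above every stimulated library, while Ag and Ag+Costim overlapped. The log2 fold change was -0.96 (SE 0.15) for Ag against Naive and -0.68 (SE 0.15) for Ag+Costim against Naive, both called. It was 0.28 (SE 0.12) for Ag+Costim against Ag, not called, and was called without Ag 5, Ag+Costim 1 or Ag+Costim 2 (0.33 to 0.34) and by DESeq2 (0.28). Across the 12 libraries the log2 CPM of Il4ra and Il21r had a Pearson correlation of 0.94, which is a description, since the libraries share their groups.

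**Figure D1:**
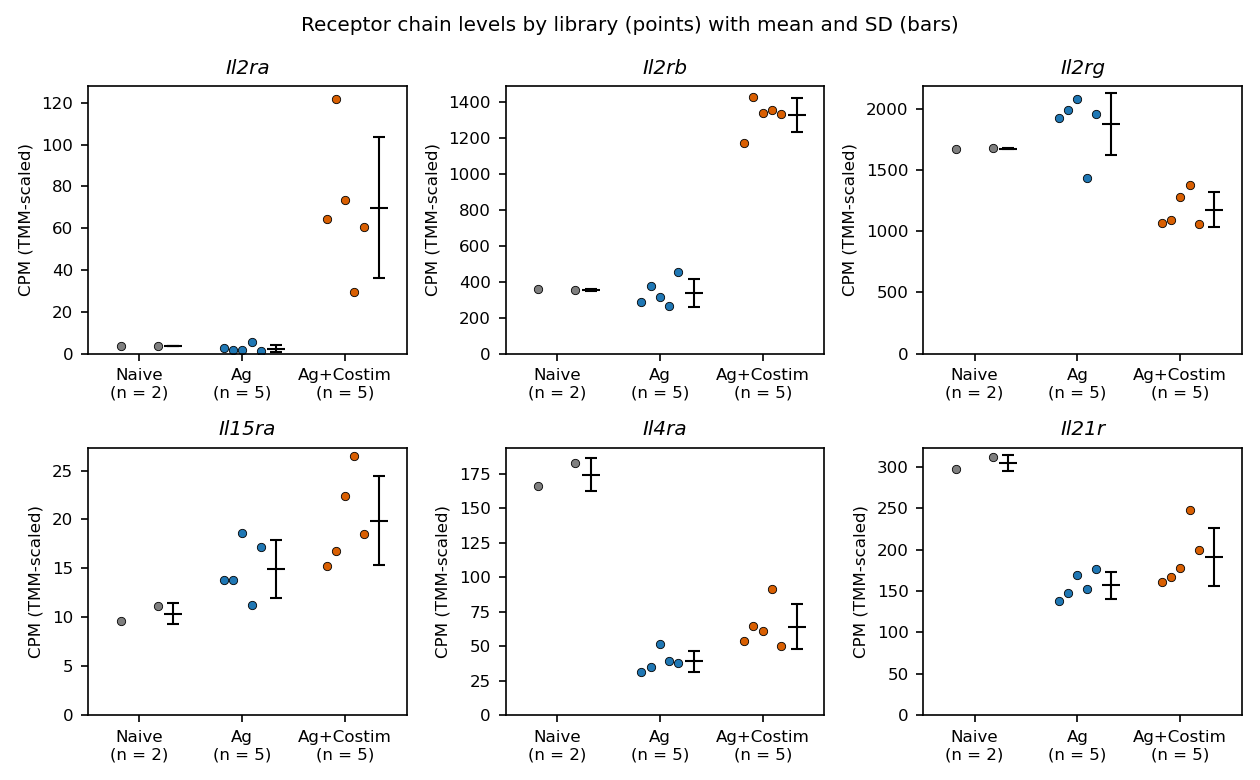
TMM-scaled CPM (vertical axes, from 0) of each chain in each library of the 3 groups, with the mean and SD beside the points. Il2ra and Il2rb sit highest in Ag+Costim, Il2rg lowest there, and Il4ra and Il21r highest in Naive (166 and 183 CPM, and 298 and 312 CPM).

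Of the 6 chains, 4 were called between Ag+Costim and Ag, 3 higher and 1 lower, where 53.1% of 18817 genes tested were called, 26.6% higher and 26.5% lower. Between Ag and Naive 2 were called, both lower, against 46.7% of all genes (24.2% higher and 22.5% lower). Between Ag+Costim and Naive all 6 were called, 3 in each direction, against 52.3% of all genes (26.9% higher and 25.4% lower). The groups did not overlap for 3, 3 and 6 chains, beside 39.8%, 56.4% and 66.0% of all genes tested. The chains were chosen with these contrasts known, so nothing is read from their counts. All 6 passed the filter on low counts. The median log2 fold change of the chains was 0.56, -0.33 and 0.21 in the 3 comparisons, beside -0.049, 0.016 and -0.024 over all genes tested. With upper-quartile scaling the median of all genes moved to -0.245 between Ag+Costim and Ag, and the calls split into 4056 higher and 6338 lower in place of 5006 and 4979. No chain changed direction between Ag+Costim and Ag under that scaling. The comparisons with Naive share its 2 libraries, and those with Ag share that group.

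**Figure D2:**
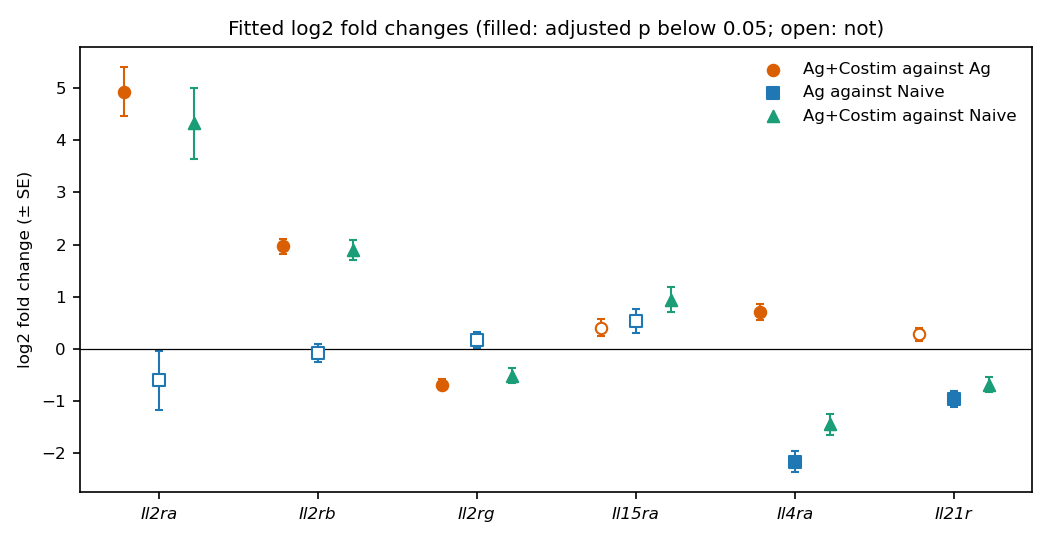
Fitted log2 fold changes with SE (vertical axis) of the 6 chains in the 3 comparisons, filled where edgeR's adjusted p was below 0.05. Il2ra lies at 4.93 and 4.33 in the comparisons of Ag+Costim with Ag and with Naive, and at -0.60 for Ag against Naive.

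Levels were set between genes only as FPKM, which is scaled for transcript length, summed over the transcripts of a gene. In Naive cells the order was Il2rg (1173 ± 13.6 FPKM, SD, n = 2), Il21r (138 ± 5.07), Il2rb (93.3 ± 0.728), Il4ra (46.4 ± 4.07), Il15ra (6.73 ± 0.528) and Il2ra (0.998 and 1.01), and no neighbours in this order overlapped. In Ag (n = 5) Il2rg stood first at 1184 ± 120 FPKM. Il2rb (79.1 ± 17.2) and Il21r (63.6 ± 5.45) overlapped, Il15ra (9.09 ± 1.31) and Il4ra (7.84 ± 1.91) overlapped, and Il2ra was last at 0.609 ± 0.392. In Ag+Costim (n = 5) Il2rg was at 710 ± 82.6, Il2rb at 301 ± 19.5 and Il21r at 75.9 ± 13.5 FPKM, with no overlap between these 3. Il2ra (16 ± 7.66), Il4ra (12.8 ± 2.95) and Il15ra (11.7 ± 2.77) followed and overlapped. So Il2ra had the lowest FPKM level of the 6 in Naive and Ag, and in Ag+Costim its range overlapped those of Il4ra and Il15ra. Within each Ag+Costim library Il2ra was above both, except in Ag+Costim 4, at 6.75 FPKM against 17.2 and 15.8.

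The proportions between the IL-2 receptor chains differed in the same way. The FPKM of Il2rg exceeded that of Il2rb by 12.4- and 12.7-fold in the Naive libraries and by 11.7- to 18-fold in Ag, but by only 2.03- to 2.71-fold in Ag+Costim. The ratio of Il2ra to Il2rb was 0.0106 and 0.0109 in Naive, 0.00213 to 0.0194 in Ag and 0.022 to 0.0862 in Ag+Costim. Even there, Il2ra RNA stayed well below Il2rb RNA in every library. The FPKM ratio of Il15ra to Il2ra was 6.37 and 7.06 in Naive, 6.02 to 48.5 in Ag and 0.362 to 2.35 in Ag+Costim. The ratios of Il2rg to Il2rb and of Il2ra to Il2rb did not overlap between Ag+Costim and Ag.

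**Figure D3:**
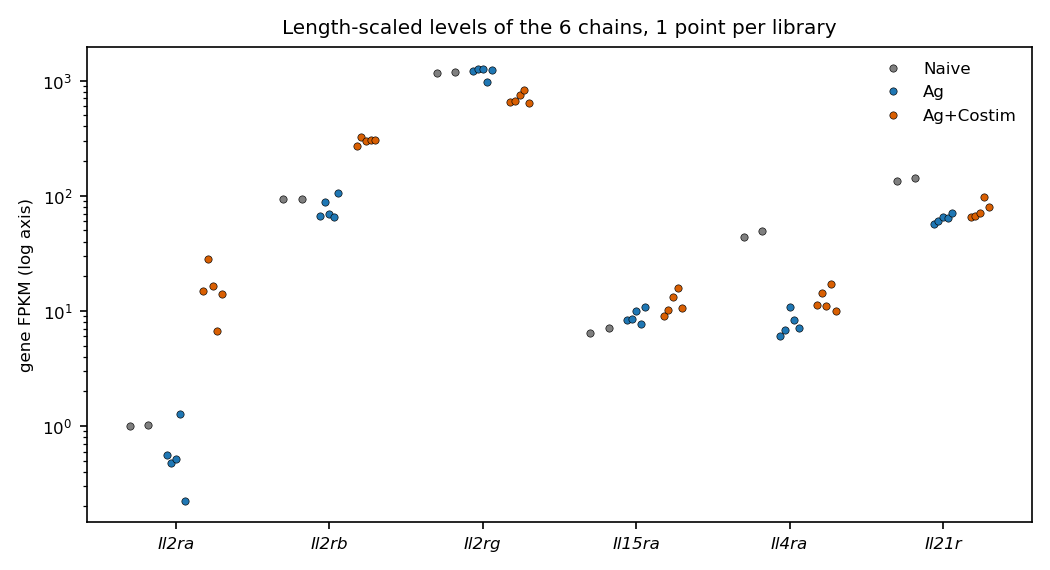
Gene FPKM (log axis) of the 6 chains, with 1 point per library of Naive, Ag and Ag+Costim. Il2rg lies above the other chains in every library, the gap to Il2rb is narrower in Ag+Costim (means 710 and 301 FPKM), and Il2ra moves from the bottom to the range of Il4ra and Il15ra.

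Transcript forms of Il2rg, Il21r and Il4ra that change the membrane-spanning part of the receptor were then examined. In each of these chains a single exon encodes the segment that crosses the membrane, and the common gamma chain and the mouse interleukin-4 receptor are known to have soluble forms made from alternatively spliced RNA. Exon sequences were read from the GENCODE vM21 transcripts, on mm10. Il2rg-201 has 8 exons, and its exon 6 (97 bases, chrX:101265630-101265726, minus strand) is coding. Il2rg-203 goes from the preceding exon straight to the following one. Il21r-201 has 9 exons, and its exon 7 is coding and also 97 bases long (chr7:125629738-125629834, plus strand), and Il21r-202 leaves it out. Since 97 is not a multiple of 3, leaving it out shifts the reading frame in both genes. The sequences below show the exon in capitals with 30 bases of the exon before and 32 (Il2rg) or 30 (Il21r) of the exon after it in lower case, and then the junction without the exon.
Il2rg-201, chrX:101265411-101266210, minus strand: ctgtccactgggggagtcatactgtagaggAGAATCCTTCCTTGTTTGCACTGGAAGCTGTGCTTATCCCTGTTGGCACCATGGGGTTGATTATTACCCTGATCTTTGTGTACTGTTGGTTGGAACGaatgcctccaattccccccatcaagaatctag
Il2rg-203, same span, exon left out, with the annotated stop codon in capitals: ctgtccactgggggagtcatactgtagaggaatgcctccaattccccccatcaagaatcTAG
Il21r-201, chr7:125629014-125630734, plus strand: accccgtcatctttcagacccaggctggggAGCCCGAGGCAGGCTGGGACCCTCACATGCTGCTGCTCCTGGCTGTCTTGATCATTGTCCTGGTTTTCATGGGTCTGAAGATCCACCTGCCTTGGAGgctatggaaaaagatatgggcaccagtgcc
Il21r-202, same span, exon left out: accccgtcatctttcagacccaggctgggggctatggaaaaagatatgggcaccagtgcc
In Il2rg-203 the shifted frame ends 32 bases into the next exon. In Il21r-202 it ends in the last exon, and the annotated coding length is 804 bases against 1587 for Il21r-201. Il4ra-205 is annotated as a nonsense-mediated decay transcript, where Il2rg-203 and Il21r-202 are annotated as protein-coding. It instead adds an exon of 114 bases (chr7:125571934-125572047, plus strand) that Il4ra-201 lacks, and its reading frame ends 20 bases into that exon. The sequence below gives 30 bases of the exon before it in lower case and the added exon up to and including the stop codon in capitals.
Il4ra-205, chr7:125571561-125571953, plus strand: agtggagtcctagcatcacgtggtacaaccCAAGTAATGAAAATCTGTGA

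The share of each transcript was its count per kilobase as a percent of the sum over the transcripts of its gene. The form of Il2rg without exon 6 took 5.93% and 6.26% of Il2rg in Naive. It took 8.37%, 8.9%, 10.2%, 10.7% and 10.4% in Ag 1 to Ag 5 and 7.47%, 8%, 6.96%, 8.05% and 8.71% in Ag+Costim 1 to Ag+Costim 5. Both stimulated groups were above Naive in every library, and 4 of 5 Ag+Costim libraries were below all Ag libraries. This rested on 1274 to 3487 counts per library. An estimate from splice nodes was deposited with 1 value per group, so it has no replicates. By it, exon 6 of Il2rg was included in 91.6% of Ag and 94.5% of Ag+Costim RNA, and the other core exons with a value in 100% of both after rounding. Both measures come from the same reads. The groups Ag and Ag+Costim overlapped in the share, and Il2rg-203 differs from Il2rg-201 by more than exon 6, with 5 exons against 8, which its share includes and the node estimate does not.

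Il21r-202 took 12.9% and 7.48% of Il21r in Naive, 20.4%, 15.6%, 14.7%, 10.4% and 19.1% in Ag 1 to Ag 5 and 22.2%, 26.3%, 27.8%, 17.1% and 22.2% in Ag+Costim 1 to Ag+Costim 5. Here 4 of 5 Ag+Costim libraries were above every Ag library, the reverse of the form of Il2rg without its exon. The node estimate of exon 7 of Il21r was close in the groups, at 92.2% inclusion in Ag and 90.7% in Ag+Costim. Il21r-202 also differs from Il21r-201 at both ends, which its share includes and the node estimate does not.

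Il4ra-205, with the added exon, took 56.9% and 56.7% of Il4ra in Naive (4053 and 4441 counts). In Ag 1 to Ag 5 it took 0.193%, 0%, 45.6%, 0.937% and 0%. In Ag+Costim 1 to Ag+Costim 5 it took 33.1%, 41.6%, 0.146%, 0.73% and 20.6%. Libraries of the same treatment thus split into some with over 20% and others under 1%, with 0 to 1048 counts, so means over a group describe no library. Every stimulated library was below both Naive libraries. Il4ra-205 also ends earlier than Il4ra-201, and how the counting divided reads between them was not tested. No node at the added exon was analysed here.

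Il2rg-204, a non-coding form of 2 exons annotated as a retained intron, took 7.05% and 8.23% of Il2rg in Naive. It took 1.61% to 3.02% in Ag and 1.73% to 2.64% in Ag+Costim, so the stimulated groups overlapped each other and not Naive. On the log2 ratio of a transcript to the other transcripts of its gene, the change was -1.91 (SE 0.26) for Ag against Naive and -1.89 (SE 0.26) for Ag+Costim against Naive. By limma on that ratio, a test added after the data were seen, 0 of 15 member transcripts were called between Ag+Costim and Ag, 2 between Ag and Naive and 3 between Ag+Costim and Naive. Over all 23585 transcripts tested, 8.82%, 4.92% and 10.5% were called. The 2 called between Ag and Naive were Il2rg-204 and Il2rg-203 (0.71, SE 0.17). The 3 between Ag+Costim and Naive were Il2rg-204, Il2rg-201 (0.93, SE 0.19) and Il21r-202 (1.43, SE 0.39). The calls of Il2rg-204 held without any 1 of the 12 libraries. That of Il2rg-203 was lost in 10 of 12 such fits (all but those without Ag 1 or Ag 4), that of Il21r-202 in 8 of 12 (all but those without Ag 1, Ag 4, Ag 5 or Ag+Costim 4), and that of Il2rg-201 without Naive 1 or Naive 2.

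**Figure D4:**
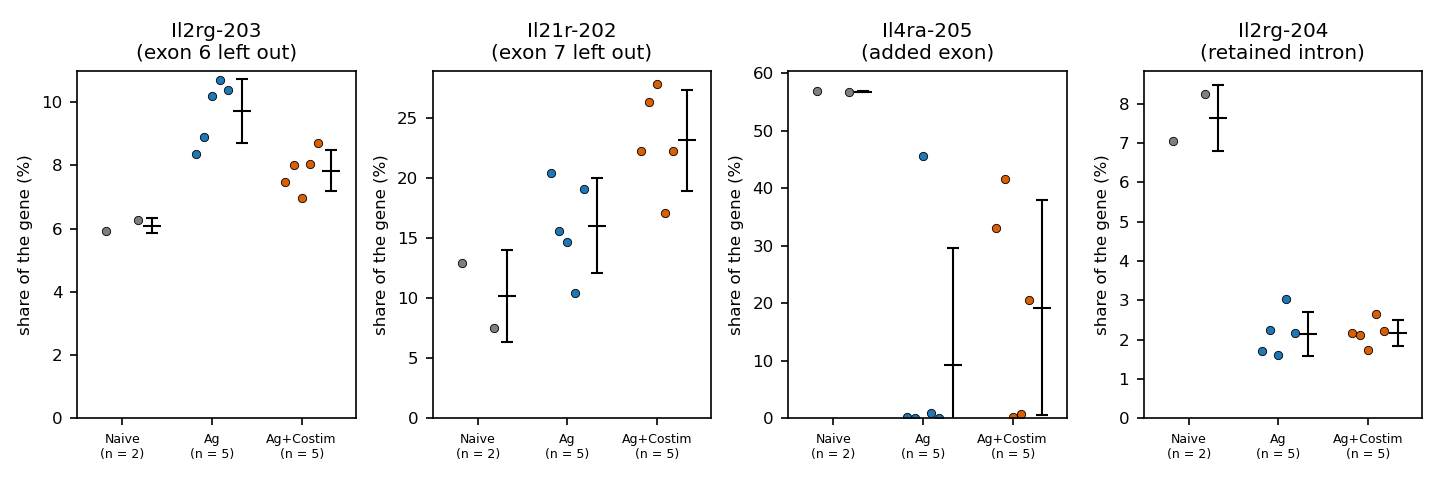
Share of the gene's counts per kilobase (vertical axes, percent, from 0) held by 4 transcripts in each library, with the mean and SD beside the points. The form of Il2rg without exon 6 is lowest in Naive (5.93% and 6.26%), Il4ra-205 jumps between libraries of 1 group, its lower error bars ending at the axis or near it, and Il2rg-204 is above 7% in Naive alone.

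Splice nodes of the other chains were estimated for Ag and Ag+Costim in the same way. Il2rb-201 held 99.4% or more of Il2rb in every library, and all 8 core exons of Il2rb with a value were included in 99.8% or more of the RNA. Of its tandem 3′ end nodes, the one nearer the coding part (859 bases) was estimated at 6.09% in Ag and 20.8% in Ag+Costim, and the next one at 93.9% and 79.2%. Il2ra had a pair of tandem start nodes. The first was at 76.3% in Ag and 52.1% in Ag+Costim, and the second at 23.8% and 47.8%. The 6 core exons of Il2ra with a value were included in 87% to 92.8% of the RNA in Ag and 97.2% to 99.4% in Ag+Costim. For Ag these rest on the few Il2ra counts given above. Il2ra-202, a short form of 2 exons that ends in an alternative last exon, took 4.57% to 8.41% of Il2ra in Ag+Costim and 0% to 52.6% in Ag, where it had at most 13 counts. Il15ra had 18 annotated transcripts, of which 7 reached 5% in the mean of a group. Its first 3′ end node was estimated at 58.3% in Ag and 87.7% in Ag+Costim, and its core exons of 71 and 99 bases were included in 14.2% and 83.6% in Ag and in 12.3% and 78.7% in Ag+Costim. The largest difference of any node of the 6 chains was at the Il15ra start node of 20 bases, from 62.5% in Ag to 23.6% in Ag+Costim, while its start node of 136 bases was at 8.53% and 32.7%. These node values have no replicates, and differences between them were not tested.

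The sequence before the Il2ra start is shown since Il2ra had the largest difference and its start nodes differed. It covers 250 bases (RefSeq, GRCm38.p6, chr2:11642542-11642791, plus strand), and the capitals mark the match to a NF-kB motif.
Il2ra promoter: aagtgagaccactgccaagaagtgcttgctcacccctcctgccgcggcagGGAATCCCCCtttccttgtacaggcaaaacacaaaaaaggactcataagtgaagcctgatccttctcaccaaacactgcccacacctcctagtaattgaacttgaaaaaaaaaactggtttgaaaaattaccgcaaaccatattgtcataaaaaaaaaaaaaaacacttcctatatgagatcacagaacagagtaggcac
On both strands of the 250 bases before each start, 3 motifs were searched, namely GGG and TTCC with any 3 bases between them for NF-kB, TTCNNNGAA for STAT factors and TGANTCA for AP-1. Promoters were given for 5 of the chains and not for Il2rb. Il2ra held the NF-kB letters 200 bases before its start, as do 5.31% of 27025 genes. Il15ra held the AP-1 letters 30 bases before a start, as do 7.82% of genes. The STAT letters, found in 8.13% of genes, were in no window of the 5 chains. Such a match is a description of letters and not of binding.

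The genes around these receptors were counted in 6 lists of 59 genes, of which 56 passed the filter on low counts. The lists were chosen with earlier results of these data known, so the changes of their genes are descriptions without a test. Between Ag+Costim and Ag, 21 were called higher and 17 lower, against the 26.6% and 26.5% of all genes given above. Among the 6 ligands, Il2 was at 0 counts in both Naive libraries. It was at 4.11 to 6.71 CPM in Ag and 3.19 to 4.28 CPM in Ag+Costim. The groups overlapped. Il2 was called lower in Ag+Costim, at -0.61 on the log2 scale with an SE of 0.17. That call was lost with an offset for transcript length, at -0.41. Against a floor of 3 counts per Naive library, the group mean of Il2 was at least 88-fold higher in Ag and at least 57.8-fold higher in Ag+Costim. Il21 had 0 to 60 counts in Ag, 1 to 32 in Ag+Costim and 0 in Naive. Il15 had 0 to 113 counts in any library, and Il4, Il7 and Il9 had at most 6, 13 and 0. So little RNA for the ligands other than Il2 was detected in these T cells at this depth, and other cells of the mice were not measured.

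Of the other receptor chains, Il7r, the interleukin-7 receptor alpha chain that marks naive and memory T cells, was at 525 and 610 CPM in Naive, 90.7 to 121 in Ag and 60.2 to 104 in Ag+Costim. Its log2 fold change was -2.43 (SE 0.18) for Ag against Naive and -0.54 (SE 0.15) for Ag+Costim against Ag, both called. Il9r had no counts in Naive and was at 0.356 to 1.7 CPM in Ag and 0.142 to 0.753 CPM in Ag+Costim. Il13ra1 did not exceed 1.5 CPM in any library. Crlf2, the thymic stromal lymphopoietin receptor, was at 14 to 21.3 CPM in all groups, and its log2 fold change between Ag+Costim and Ag was -0.19 (SE 0.12), not called and 0.02 with the length offset.

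Among the 18 signal transducers, 11 rose and 4 fell between Ag and Ag+Costim, where 26.6% and 26.5% of all genes did. The median log2 fold change of the list was 0.72 beside -0.049 for all genes. The 11 included Jak1 (0.70, SE 0.13), Jak3 (0.80, SE 0.10), Stat5a (1.34, SE 0.11) and Stat5b (1.45, SE 0.11), kinases and factors that the beta and gamma chains use. The 4 that fell were Lck (-0.58, SE 0.10), also a kinase, Sos1 (-0.54, SE 0.20), Ptpn11 (-0.75, SE 0.11) and Irs2. Apart from Irs2, these genes are named here after their values were seen. Against Naive, Jak1, Jak3, Stat5a and Stat5b were lower in Ag, at -1.06, -0.58, -0.78 and -1.12, all called. In Ag+Costim they were at -0.36, 0.22, 0.55 and 0.33, of which only Stat5a was called. By the fixed rule, Gab2, an adaptor, rose by 2.30 (SE 0.66) from 0.259 ± 0.191 to 1.32 ± 0.53 CPM, and Irs2, an insulin receptor substrate also used by the interleukin-4 receptor, fell by 3.12 on the log2 scale (SE 0.28), from 8.48 ± 2.65 to 0.977 ± 0.336 CPM (SD, n = 5 each). Against Naive, 4 of the 18 were called higher in Ag and 10 lower (24.2% and 22.5% of all genes), and 6 higher and 4 lower in Ag+Costim (26.9% and 25.4%).

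Of the 8 inhibitors, Cish rose and Socs1 and Ptpn1 fell between Ag and Ag+Costim, and 5 were not called. Over all genes, 26.6% rose and 26.5% fell. The median log2 fold change of the inhibitors was 0.05. Cish, an inhibitor induced by STAT5, was at 1.99 to 3.92 CPM in Ag, 3.79 to 8.69 in Ag+Costim and 4.93 and 6.79 in Naive, a log2 fold change of 1.08 (SE 0.28) between the stimulated groups. Between Ag+Costim and Naive it was 0.02 (SE 0.37) and turned negative under several alternatives. Socs1 was at 48.5 to 58.4 CPM in Ag and 16.7 to 43.3 CPM in Ag+Costim (log2 fold change -0.85, SE 0.22).

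Genes known to be induced by IL-2 receptor signalling did not move as 1 group. Of 16, 8 rose and 5 fell between Ag and Ag+Costim, where 26.6% and 26.5% of all genes did. The median of the list was 0.62. Il12rb2, the interleukin-12 receptor beta 2 chain, was at 4.07 and 4.39 CPM in Naive, 1.01 to 3.94 in Ag and 19 to 70.9 in Ag+Costim (log2 fold change 4.47, SE 0.41, called). Prdm1, which encodes the effector factor Blimp-1, was at 0.756 and 1.75 CPM in Naive, 0.649 to 1.34 in Ag and 13.2 to 23 in Ag+Costim (4.24, SE 0.27, called). The others that rose were Slc7a5 (3.89, SE 0.29), Gzmb (2.62, SE 0.45), Pim1 (1.88, SE 0.22), Bcl2l1 (1.05, SE 0.11), Ccnd3 (0.99, SE 0.10) and Myc (0.89, SE 0.14). The 5 that fell were Bcl2 (-0.95, SE 0.13), Mcl1 (-1.48, SE 0.13), Pim2 (-0.99, SE 0.18), Ccnd2 (-1.45, SE 0.11) and Lta (-1.38, SE 0.19). Against Naive, 5 of the 16 rose and 4 fell in Ag, where 24.2% and 22.5% of all genes did, and 7 rose and 5 fell in Ag+Costim, where 26.9% and 25.4% did.

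Of the 7 genes known to be repressed by IL-2 receptor signalling, 4 fell and 1 rose between Ag and Ag+Costim, where 26.5% and 26.6% of all genes did. Tcf7, Ccr7 and Klf2 were among those that fell, and 2 genes were not called, with a median of -0.60 for the list. The gene that rose was Bcl6, a repressor opposed to Prdm1, at 1.32 to 2.18 CPM in Ag and 3.61 to 8.91 in Ag+Costim (1.60, SE 0.25), below 7.47 and 9.62 in Naive for all but the highest library. Against Naive, 5 of the 7 fell in Ag and 6 in Ag+Costim, beside 22.5% and 25.4% of all genes, and none rose.

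**Figure D5:**
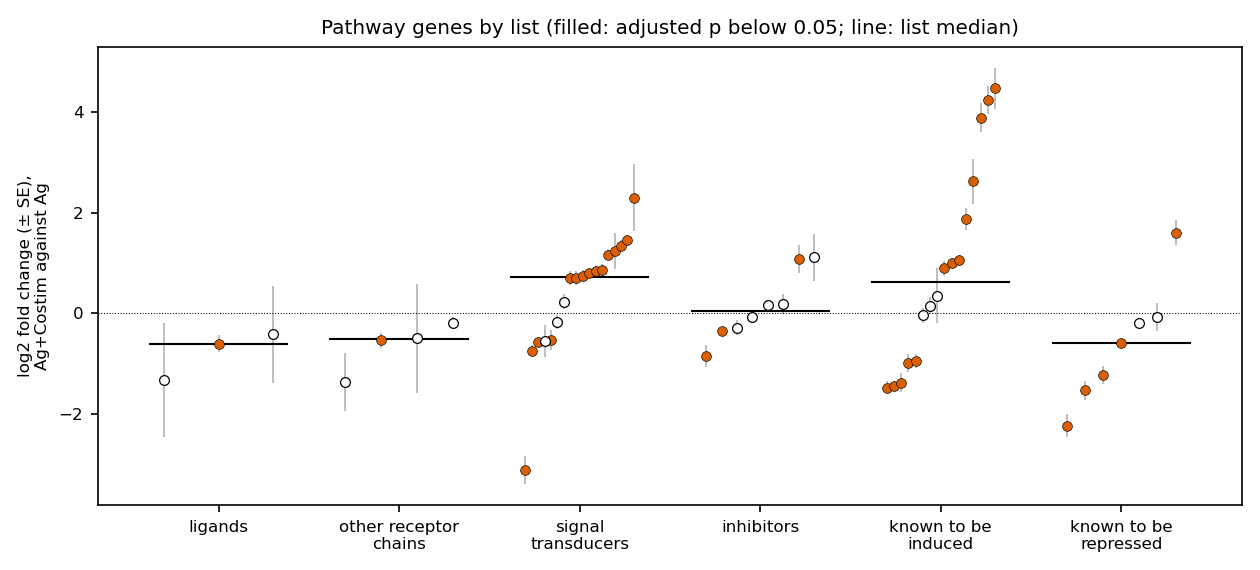
Log2 fold change with SE between Ag+Costim and Ag (vertical axis) of the 56 tested genes in 6 lists, filled where edgeR's adjusted p was below 0.05, with the median of each list as a line. Signal transducers have a median of 0.72, and the genes known to be induced spread from below -1 to 4.47.

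The genes whose log2 CPM over the 12 libraries was most like that of each chain were found among 9247 genes with a mean log2 CPM over 3, by Pearson's r, as a description. For Il2ra they were Ccp110 (0.993), Smpd4 (0.992) and Ipo5 (0.991), and for Il2rb they included Pik3cg and Uba1 (0.991 each). For Il2rg they were Shisa5 (0.989), Cd96 (0.979) and Pld3 (0.978). For Il15ra they were Pgm2 (0.968), Vasp (0.936) and D6Wsu163e (0.932). For Il4ra they were Map3k14 (0.973), Galnt10 (0.971) and Zfp146 (0.965), and for Il21r they were Hid1 (0.984), Rtn4rl1 (0.972) and Rara (0.970). Among the chains themselves r was 0.91 for Il2ra with Il2rb and -0.96 for Il2ra with Il2rg. The libraries share 3 groups, and no correlation within a group was computed.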

How the data were processed

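Per the labels, RNA of sorted OT-I cells was sequenced in 12 libraries. The authors prepared cDNA with SMART-Seq v4 and Nextera XT, sequenced 1 end of 100 bases, aligned to mm10 with HISAT2 2.1.0 and quantified with StringTie 2.1.0, per the submitters' processing notes. Whether strand was used is not given in the sources used here. The deposited gene and transcript counts are whole numbers derived from coverage and are not normalized. The deposited FPKM values were scaled for length and library size by the authors, without transcript identifiers, so transcript shares were taken from counts per kilobase. The deposited Psi fractions of splice nodes (Whippet) are 1 value per group. The same table holds the authors' own comparisons, which were not used. Lane and sample sheets were not used.

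Identifiers were matched to GENCODE vM21. In all, 55536 gene entries matched, and 26345 unnamed entries (0.0508% to 0.121% of counts) were left out. Genes were filtered with filterByExpr, leaving 18817, scaled by TMM and tested with edgeR 4.0.16 (robust quasi-likelihood, 1 term per group, Benjamini-Hochberg adjustment, two-sided, threshold 0.05). With 2 Naive libraries, precision there is low. Transcript usage was to be tested with diffSpliceDGE, which called no member transcript but recovered few changes put into simulated counts and made many false calls, so limma 3.58.1 on the log2 ratio to the other transcripts (0.5 added to both counts) was added after the data were seen. It made few false calls there but also missed most of the changes, so a transcript that it did not call may still differ. Scripts were tested on simulated data. Of 200 genes changed by 1 on the log2 scale in simulated counts, edgeR recovered 124, with 2 false calls. A gene that edgeR did not call may therefore still differ. Alternatives were upper-quartile scaling, no filter, DESeq2 1.42.0, the 2 groups alone, a transcript length offset, a replicate block, limma on log2(FPKM + 1) and log2(FPKM + 0.1), and leaving out each library.

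Groups came from the labels. Same-numbered Ag and Ag+Costim libraries deviated together in only 3 of 5 pairs (r over 0.1), so numbers were not taken as pairs. The members and lists were chosen with earlier results of these data known. By rule, the named pathway genes are every ligand and other receptor chain. The rule adds the 2 called genes of each other list with the largest change between Ag+Costim and Ag. Any further pathway genes in the text were named after their values were seen. Transcripts with at least 5% of a gene in the mean of a group, or called, could be named, and for each chain the 3 genes most like it. Of the genes these rules name, 2 are not reported here. Exon sequences come from GENCODE and the promoter from RefSeq.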

Additional observations from a re-analysis of the deposited data

Results flagged for a closer look

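Among 48 sets of 5 libraries examined for 1 library far from the others, 6 were set apart. Chance alone sets apart about 1 in 20 where the sets are independent and normally distributed. Many of these sets were transcript shares, which are bounded and depend on each other within a gene, so that rate does not apply to them. Il2rg in Ag 4 was at 1440 CPM, the lowest of its group, where the others were at 1924 to 2081 CPM. Ag 4 also had the lowest total count and the highest Il2ra level in Ag. For Il4ra, Ag 3 gave 50.9% of the gene to Il4ra-201, against 90.8% to 96.9% in the other Ag libraries, and 45.6% to Il4ra-205, against at most 0.937%. Il15ra-215 held 14.1% of Il15ra in Ag 4 and 1.58% to 4.36% in the other Ag libraries, from 11 counts and 3 to 8 counts. Il2rb-201 held 99.8% of Il2rb in Ag 5, and 99.4% in Ag+Costim 5, where the other libraries of each group held 99.9% or more, a difference of little size.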

How the results depend on the processing

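Of 360 values of a chain's log2 fold change under an alternative, 345 kept their direction and their side of the threshold, 4 were no longer called, 9 became called and 2 changed sign, neither of them called. The sign changed for Il2rg between Ag and Naive with the length offset (-0.13) and for Il2rb in that comparison without Ag 4 (range -0.20 to 0.01 when leaving out each library). The number of chains called was 3 to 6 between Ag+Costim and Ag, 2 to 3 between Ag and Naive and 4 to 6 between Ag+Costim and Naive. The log2 fold change of Il2ra between Ag+Costim and Ag was 3.31 to 5.02 over the alternatives that keep all libraries, lowest on the log2(FPKM + 1) scale, and 4.63 to 5.43 when leaving out each library. Member transcripts called were 0 by diffSpliceDGE in each comparison, 0 to 1 when leaving out each library between Ag+Costim and Ag or between Ag and Naive. By limma on the log2 ratio they were 2 (1 to 3 when leaving out each library) between Ag and Naive and 3 (1 to 4) between Ag+Costim and Naive, and diffSpliceDGE gave 0 in every such fit of the latter. The cause was not tested.

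With the replicate block, that is with the library number as a term, 5, 2 and 6 chains were called in the 3 comparisons. Il21r between Ag+Costim and Ag (0.27) became called. Il15 changed sign, to 0.81 against Ag and 0.77 against Naive, and Cish in Ag+Costim against Naive was -0.03. Correlations of same-numbered Ag and Ag+Costim libraries were -0.045 to 0.297, and 2 of 5 Ag libraries correlated best with their own number.

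The other changes of sign were in genes not called. Il15 ranged from -0.74 to 1.01 (Ag+Costim against Ag), -1.50 to 0.56 (Ag against Naive) and -0.94 to 0.15 (Ag+Costim against Naive) when leaving out each library. In the same fits Crlf2 ranged from -0.07 to 0.27 and from -0.27 to 0.07 against Naive, Gab2 from -1.47 to 0.65 and Prdm1 from -0.93 to 0.28 in Ag against Naive, and Cish from -0.20 to 0.26 in Ag+Costim against Naive. Crlf2 was 0.02 (Ag+Costim against Ag) and -0.36 (Ag against Naive) with the length offset and -0.05 with either FPKM scale. Cish in Ag+Costim against Naive was -0.14 with upper-quartile scaling, -0.01 with the length offset and -0.15 and -0.24 on the FPKM scales. Per kilobase of counts, the ratio of Il2rg to Il2rb was 8.5, 10.2 and 1.6 in Naive, Ag and Ag+Costim, that of Il15ra to Il2ra had means of 3.82, 11.8 and 0.485 (6.72, 21.4 and 0.972 by FPKM), and Il4ra stood above Il15ra in Ag. On the log2(FPKM + 1) scale, calls between Ag+Costim and Naive split into 3678 higher and 5411 lower over all genes, in place of 5066 and 4778.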
